A study of Mus musculus with 4 samples.

Results

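The 31 genes described here make, take up, store and export cholesterol, and they were chosen by symbol from the 15906 genes listed in any of the 3 deposited tables. All 31 were listed in every table, and the rule that picks them uses gene names alone. Of the members 19 are enzymes of synthesis, 7 from acetyl-CoA to farnesyl pyrophosphate and 12 from squalene to cholesterol. A further 4 sense sterol levels, 5 take up, move or store cholesterol inside the cell, and 3 belong to efflux.

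RNA was sequenced from progenitors of mouse (C57BL/6) adipose tissue that were sorted with magnetic beads, grown, and carried through adipogenic differentiation before treatment. PDGFRα+ cells, which the labels also call CD140+, carry a platelet-derived growth factor receptor that marks adipose progenitors in general, and CD137+ cells carry a receptor used to mark precursors of beige adipocytes. The groups were PDGFRα+ cells with dexamethasone (DEX, a synthetic glucocorticoid, at 1 µM), PDGFRα+ cells with PBS, CD137+ cells with the same dose of DEX, and CD137+ cells with PBS. Each group had 1 sample, so no difference below could be checked against replicates or tested. All groups received the differentiation cocktail, whose agents, like the length of treatment, the number and age of the animals and the depot behind each cell type (SAT or VAT in the labels), are not stated in the sources used.

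Cells build cholesterol from acetyl-CoA through mevalonate, farnesyl pyrophosphate, squalene and lanosterol. When membranes of the endoplasmic reticulum run low in sterol, Scap carries the transcription factor SREBP-2 (gene Srebf2) to the Golgi, where it is cleaved and then switches on the synthesis enzymes, while Insig1 and Insig2 hold Scap back when sterol is plentiful. Oxysterols formed from excess cholesterol activate the liver X receptors, which switch on the efflux pumps Abca1 and Abcg1, and adipocytes hold much of their cholesterol unesterified around the fat droplet.

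The values are FPKM (sequenced fragments divided by transcript length and by the library's total), which allow levels of different genes to be set side by side per length. A deposited table holds 2 columns, and both DEX labels occur in 2 tables with different values: 0 of 13596 shared genes were identical between the columns labelled CD137+ DEX and 1 of 14208 between those labelled PDGFRα+ DEX. All 6 columns were therefore kept as libraries of their own, and those of the table that compares the cell types are called the second PDGFRα+ DEX and the second CD137+ DEX library. By the sheet titles, the PBS library carries the same number as the first DEX library in CD137+ cells, and as the second DEX library in PDGFRα+ cells. The libraries listed 14208 to 15009 genes, with 11971 to 12465 at 1 FPKM or more, and sequencing depth is unknown.

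Of 15 genes known to be induced by glucocorticoids, 10 were past 2-fold lower and 0 higher in the first PDGFRα+ DEX library than with PBS (median -1.40), so directions below are those of the labels. In CD137+ cells 1 was higher and 1 lower (median -0.09), and in the second PDGFRα+ DEX library 0 were past 2-fold against PBS (median 0.03). The second CD137+ DEX library had 1 past 2-fold higher and 5 lower against CD137+ PBS (median -0.55). Tsc22d3, a leucine zipper gene that the glucocorticoid receptor switches on directly, had 30.2 FPKM in the first PDGFRα+ DEX library and 122 FPKM in the second, against 113 FPKM with PBS. In CD137+ cells Tsc22d3 had 38.5 FPKM with DEX and 76.1 FPKM with PBS, while the phosphatase gene Dusp1 had 135 FPKM with DEX and 39.2 FPKM with PBS. The second CD137+ DEX library held Tsc22d3 at 28.7 FPKM and Dusp1 at 60.5 FPKM. The co-chaperone gene Fkbp5 stood at 35.8 and 73.8 FPKM in the first and second PDGFRα+ DEX libraries and 64.7 FPKM with PBS, and at 66.2 and 68.1 FPKM with DEX and PBS in CD137+ cells. The sort marker Tnfrsf9 (CD137) was listed at 0.161 FPKM in the second CD137+ DEX library and not in the CD137+ table, against 1.62 to 4.81 FPKM in the PDGFRα+ libraries. Pdgfra was present in each library, at 57.9 to 164 FPKM, and the adipocyte hormone Adipoq ranged between 0.149 FPKM in the second CD137+ DEX library and 145 FPKM in CD137+ PBS.

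Promoters are shown for 6 of the 8 enzymes that stood past 2-fold in the PDGFRα+ table and for the efflux pump Abca1, which stood past 2-fold on the lower side. They are RefSeq sequences of the GRCm38.p6 build, 5′ to 3′ on the strand of the gene, and capitals mark 2 motifs: the NF-Y box CCAAT, which appears as ATTGG where it lies on the other strand, and the sterol element TCACNCCAC, to which SREBP proteins are known to bind.
Hmgcs1: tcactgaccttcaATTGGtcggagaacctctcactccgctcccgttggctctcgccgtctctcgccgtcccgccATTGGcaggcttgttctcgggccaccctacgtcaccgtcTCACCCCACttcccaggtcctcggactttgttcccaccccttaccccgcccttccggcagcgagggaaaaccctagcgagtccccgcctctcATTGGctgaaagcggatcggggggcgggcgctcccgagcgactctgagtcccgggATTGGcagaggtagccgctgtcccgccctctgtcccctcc
Idi1: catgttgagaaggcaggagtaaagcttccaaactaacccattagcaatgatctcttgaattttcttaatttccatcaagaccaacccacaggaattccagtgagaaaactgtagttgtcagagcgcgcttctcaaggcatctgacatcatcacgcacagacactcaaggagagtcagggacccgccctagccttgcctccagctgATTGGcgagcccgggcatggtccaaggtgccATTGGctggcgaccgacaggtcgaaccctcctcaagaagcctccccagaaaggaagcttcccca
Msmo1: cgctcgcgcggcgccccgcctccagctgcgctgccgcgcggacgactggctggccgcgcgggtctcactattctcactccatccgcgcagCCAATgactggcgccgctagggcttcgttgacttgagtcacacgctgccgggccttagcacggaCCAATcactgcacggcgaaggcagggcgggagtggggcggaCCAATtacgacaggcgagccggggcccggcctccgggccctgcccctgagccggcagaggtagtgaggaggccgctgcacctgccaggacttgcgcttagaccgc
Nsdhl: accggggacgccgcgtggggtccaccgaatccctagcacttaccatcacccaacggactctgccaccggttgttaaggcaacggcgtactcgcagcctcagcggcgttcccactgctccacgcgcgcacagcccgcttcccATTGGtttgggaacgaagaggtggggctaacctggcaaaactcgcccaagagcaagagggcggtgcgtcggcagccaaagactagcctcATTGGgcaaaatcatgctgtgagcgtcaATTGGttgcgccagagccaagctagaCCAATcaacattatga
Hsd17b7: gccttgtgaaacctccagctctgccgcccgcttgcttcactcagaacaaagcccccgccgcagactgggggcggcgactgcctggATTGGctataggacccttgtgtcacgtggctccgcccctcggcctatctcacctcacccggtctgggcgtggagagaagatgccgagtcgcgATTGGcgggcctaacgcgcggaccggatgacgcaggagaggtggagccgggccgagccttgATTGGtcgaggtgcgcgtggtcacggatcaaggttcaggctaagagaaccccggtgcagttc
Tm7sf2: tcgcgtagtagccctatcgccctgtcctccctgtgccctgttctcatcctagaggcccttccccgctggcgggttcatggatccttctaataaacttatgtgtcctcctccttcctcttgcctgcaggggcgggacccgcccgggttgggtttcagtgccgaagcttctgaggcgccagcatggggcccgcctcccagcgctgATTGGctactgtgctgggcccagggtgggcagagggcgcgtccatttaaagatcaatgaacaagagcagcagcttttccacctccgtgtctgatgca
Abca1: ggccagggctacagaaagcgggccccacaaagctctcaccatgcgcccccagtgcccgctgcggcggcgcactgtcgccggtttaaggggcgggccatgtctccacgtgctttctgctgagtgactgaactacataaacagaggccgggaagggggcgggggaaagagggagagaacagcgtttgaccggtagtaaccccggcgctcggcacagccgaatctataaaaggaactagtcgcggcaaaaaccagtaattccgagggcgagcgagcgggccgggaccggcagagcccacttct
The windows lie at chr13:119690101-119690400 on the plus strand (Hmgcs1), chr13:8885356-8885655 plus (Idi1), chr8:64733529-64733828 minus (Msmo1), chrX:72918271-72918570 plus (Nsdhl), chr1:169969156-169969455 minus (Hsd17b7), chr19:6067801-6068100 minus (Tm7sf2) and chr4:53159846-53160145 minus (Abca1).

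A promoter window was on hand for 25 of the 31 members. The NF-Y box, searched on both strands, occurred in 15 of 16 enzymes and in 5 of the other 9 members, against 41.1% of 27025 genes with a window and 43.6% of the 9690 such genes listed in all tables. Hmgcs1 held 4 such boxes and Nsdhl 4, Hsd17b7 and Msmo1 had 3 each, Idi1 had 2 and Tm7sf2 had 1. Acat2 was the enzyme without one, and Abca1 had none either. The sterol element occurred in 1 member, Hmgcs1, against 1.44% of all genes. Its first base lay at -137 from the start site that the promoter window is placed on, which can differ from the gene start in the loci below. A shorter core, CACCCCAC, which overlaps the sterol element in Hmgcs1, was also found in Acat2 and in 3.3% of all genes. The Sp1 box GGGCGG was found in 23 of the 25 members, against 69.7% of the listed genes. These matches describe the letters only.

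**Figure D1:**
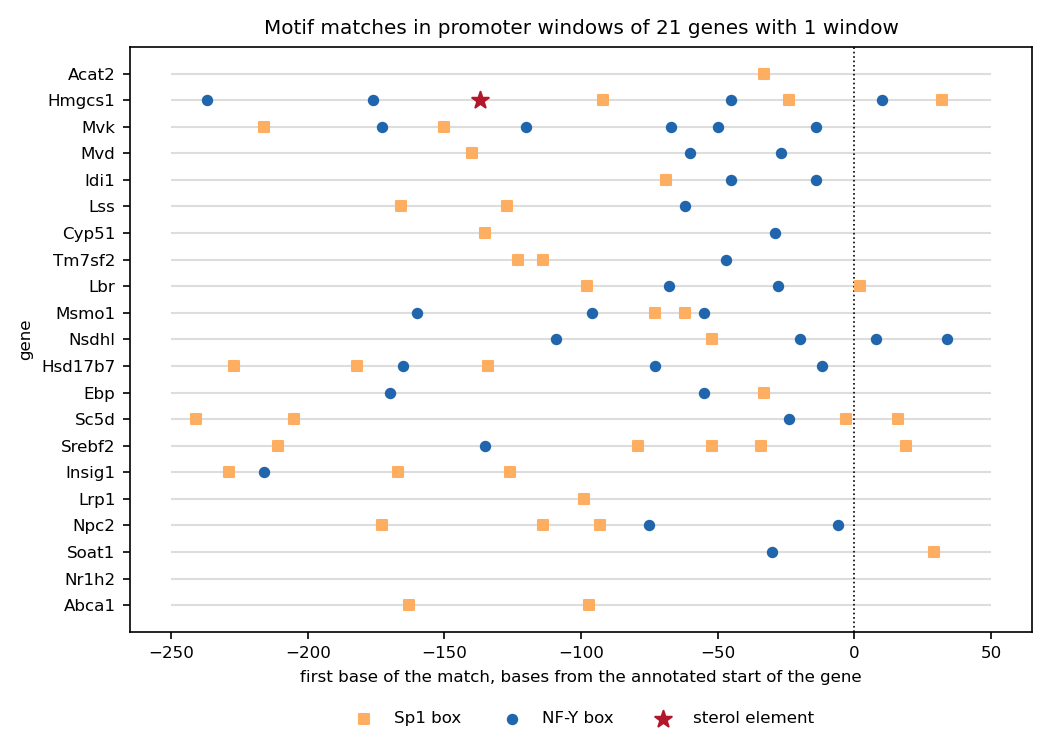
Matches of the NF-Y box, the Sp1 box and the sterol element in the promoters of the 21 members with a single window, one gene per row. The shorter core is not drawn. The horizontal axis is the distance in bases of the first base of a match from the start site that the window is placed on. This site, labelled there as the annotated start of the gene, can differ from the gene start in the loci given in the text. Sterol elements are confined to Hmgcs1 among these members, whereas NF-Y boxes are spread over most enzymes, Acat2 having none.

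Synthesis enzymes varied more between the 6 libraries than genes at large. The sum over the 19 enzymes was 666 FPKM in the first PDGFRα+ DEX library and 277 FPKM in PDGFRα+ PBS. In CD137+ cells it was 574 FPKM with DEX and 636 FPKM with PBS. The second PDGFRα+ DEX library stood at 314 FPKM and the second CD137+ DEX library at 551 FPKM. Enzyme levels thus fell into a low pair, PDGFRα+ PBS and the second PDGFRα+ DEX library, and 4 higher libraries.

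The highest level of an enzyme was 2.77 times its lowest as a median over the 19, and 16 of them (84.2%) spanned at least 2-fold. Over the 10781 genes at 1 FPKM or more in every library the median was 1.88 and the share 43.3%. PDGFRα+ PBS was the lowest library for 14 of 19 enzymes, against 30.7% of all genes, and the second PDGFRα+ DEX library for 3 more, against 18.2%. CD137+ PBS was the highest library for 9 of 19 enzymes, against 13.1% of all genes. The 5 uptake and storage genes were steadier by their median (1.41), though Soat1 spanned 2.26-fold. Among the efflux genes Abca1 spanned 5.55-fold, Abcg1 8.06-fold and Nr1h2 1.42-fold.

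Lrp1, Npc2 and Hmgcs1 led the members by mean level. Lrp1, a large endocytic receptor for lipoprotein remnants, stood at 227 FPKM in the first PDGFRα+ DEX library and 301 FPKM in PDGFRα+ PBS, at 302 and 321 FPKM in CD137+ DEX and PBS, and at 265 and 284 FPKM in the second PDGFRα+ and CD137+ DEX libraries. Npc2, the soluble lysosomal protein that hands cholesterol to Npc1, had 162 FPKM in the first PDGFRα+ DEX library against 197 FPKM with PBS, 222 against 187 FPKM in CD137+ cells, and 209 FPKM in the second PDGFRα+ against 138 FPKM in the second CD137+ DEX library. Both were high in each library, and their highest level was 1.41 and 1.6 times their lowest.

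**Figure D2:**
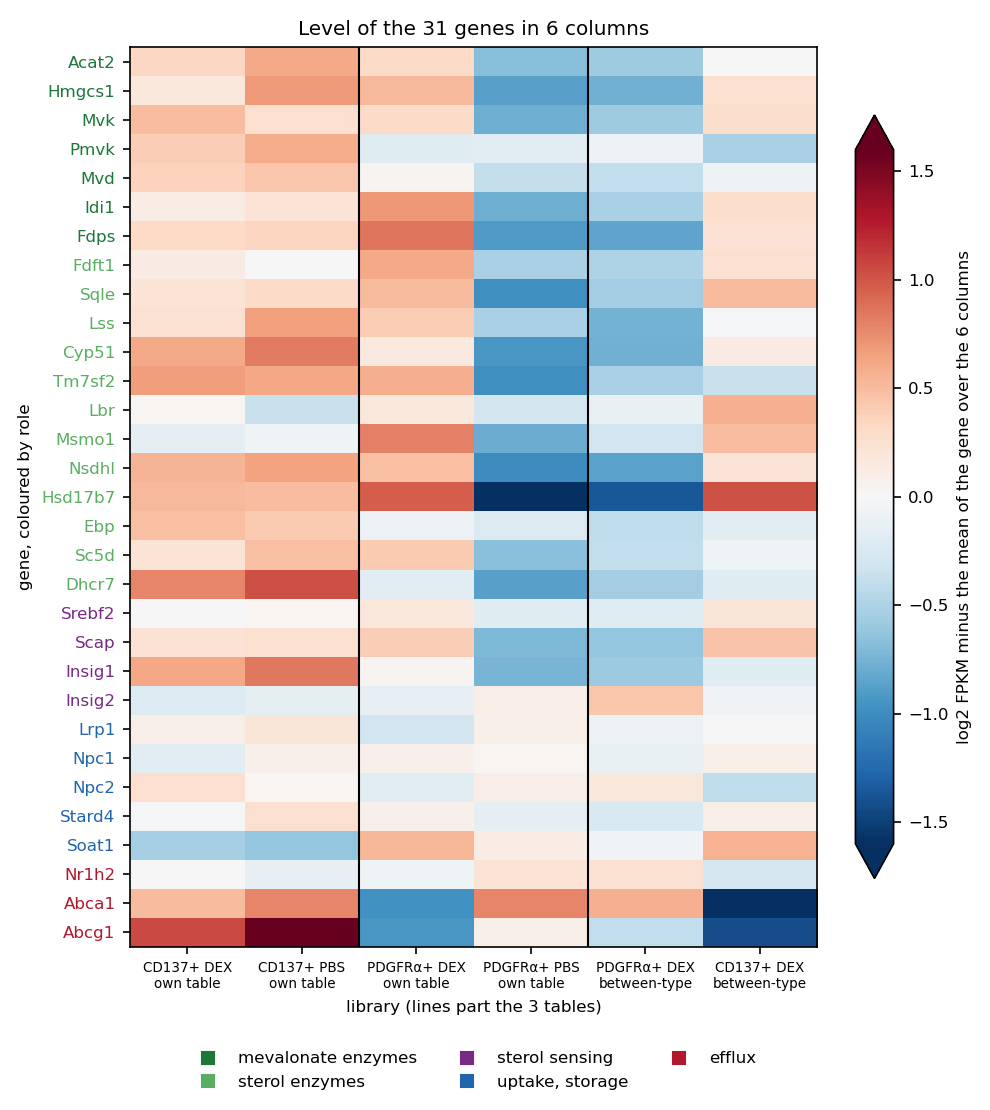
Level of each of the 31 genes (rows, names coloured by role) in the 6 libraries (columns, lines part the 3 tables), as log2 FPKM minus the gene's mean over the libraries; the colour scale ends at the values marked on its bar. Most enzyme rows are low in PDGFRα+ PBS and the second PDGFRα+ DEX library, while Abca1 and Abcg1 are low in the first PDGFRα+ DEX and the second CD137+ DEX library.

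In the PDGFRα+ table, 8 of the 31 members were past 2-fold higher in the library labelled DEX than with PBS, and all 8 were synthesis enzymes. Across the 13181 genes measured, 9.38% were past 2-fold higher. Abca1 and Abcg1, both of efflux, were past 2-fold lower, against 11.7% of all genes. A gene counts as past 2-fold where its difference in log2(FPKM + 1), less the median difference of the table (0.24 here), is at least 1 in size, with 1 FPKM or more in the higher library. Median differences were 0.82 over the 19 enzymes, -0.33 over the other 12 members and 0.01 over all genes.

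Early in the pathway, 3 of 7 enzymes were past 2-fold. Hmgcs1, the cytosolic HMG-CoA synthase (ENSMUSG00000093930, chr13:119690379-119708260, plus strand of GRCm38), stood at 81.6 FPKM with DEX and 31.1 FPKM with PBS, a difference of 1.12. Idi1, which converts isopentenyl pyrophosphate to its isomer (ENSMUSG00000058258, chr13:8885501-8892451), had 54.1 FPKM with DEX and 19.5 FPKM with PBS, a difference of 1.18. Fdps, farnesyl pyrophosphate synthase (ENSMUSG00000059743, chr3:89093588-89101959), reached 95.2 FPKM with DEX against 28.1 FPKM with PBS, a difference of 1.48. The 3 were also low in the second PDGFRα+ DEX library, at 33.5, 23.2 and 29.4 FPKM.

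Some of these values are uncertain, because other loci share their sequence. Fdps has 4 processed pseudogenes with at least 96.1% identity, and 1124 of its exon bases lie in the overlapping gene Gm43738. Idi1 has a processed pseudogene that is identical over 684 bases. Hmgcs1 and Idi1 share 557 and 323 exon bases with the antisense genes Gm48342 and Gm48574, and without strand such reads cannot be told apart. The sources used here do not say that strand was used.

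The remaining 4 early enzymes stayed within 2-fold. Acat2, the cytosolic thiolase that makes acetoacetyl-CoA, had 25.9 FPKM with DEX and 13.0 FPKM with PBS, a difference of 0.70, and is 97.7% identical over 1477 bases to Acat3. Mevalonate kinase, Mvk, had 17.5 and 8.25 FPKM with DEX and PBS, a difference of 0.76. Pmvk and Mvd, the kinase and decarboxylase that follow, differed little (-0.26 and 0.14). The deposited locus of Mvd spans 4435365 bases and holds 73 other protein-coding genes, so its value is uncertain too.

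From squalene on, 5 of 12 enzymes were past 2-fold. Hsd17b7, the sterol 3-keto reductase that acts in C4 demethylation (ENSMUSG00000026675, chr1:169949535-169969241), had the largest difference of the 31 genes, 2.09, with 23.7 FPKM with DEX and 3.90 FPKM with PBS. Its partners in the same demethylation were among the others. Msmo1, the sterol methyl oxidase (ENSMUSG00000031604, chr8:64718139-64733792), stood at 94.6 FPKM with DEX and 31.1 FPKM with PBS (1.33), and the decarboxylase Nsdhl (ENSMUSG00000031349, chrX:72918557-72958514) at 26.0 and 9.26 FPKM (1.16).

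Squalene epoxidase, Sqle (ENSMUSG00000022351, chr15:59315077-59331192), the oxygen-dependent step before lanosterol, had 40.1 FPKM with DEX and 14.4 FPKM with PBS, a difference of 1.18. Tm7sf2, a sterol C14 reductase (ENSMUSG00000024799, chr19:6062821-6068373), had 8.89 FPKM with DEX and 3.02 FPKM with PBS, a difference of 1.06, and shares 532 exon bases with Vps51. Lbr, the lamin B receptor, carries the same reductase activity and differed by 0.17, at 10.8 FPKM with DEX and 7.87 FPKM with PBS. It shares 509 exon bases with Dnah14 and Gm26004, and its deposited locus spans 266488 bases against 27712 annotated. The deposited loci of Tm7sf2 and Lbr hold 4 and 1 other protein-coding genes, so both values and their ratio are uncertain. The ratio of Tm7sf2 to Lbr was 0.822 with DEX and 0.384 with PBS.

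Of the 7 sterol enzymes within 2-fold, Fdft1 (squalene synthase, 0.83), Cyp51 (lanosterol demethylase, 0.82), Sc5d (0.82), Lss (lanosterol synthase, 0.60), Dhcr7 (0.35) and Lbr lay above 0 and Ebp, the sterol isomerase, lay at -0.11. Fdft1 shares 774 exon bases with Ctsb and is 97.4% identical over 1249 bases to the pseudogene Gm6781. Cyp51 shares 166 exon bases with Akap9, and its deposited locus spans 176693 bases against 23602 annotated, so its values are uncertain. Among all 19 enzymes 17 were above 0, the exceptions being Pmvk and Ebp. Pmvk stood at 7.62 FPKM with DEX and 7.74 FPKM with PBS, and Ebp at 23.5 and 21.4 FPKM.

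None of the 4 sensing genes was past 2-fold. Scap, the escort of SREBP-2, stood at 19.9 FPKM with DEX and 9.25 FPKM with PBS, a difference of 0.79, and shares 985 exon bases with the antisense gene 5830462I19Rik. Srebf2 itself had 37.4 FPKM with DEX and 29.2 FPKM with PBS, a difference of 0.10. Insig1, which is itself a known SREBP target, had 41.8 FPKM with DEX and 24.1 FPKM with PBS (0.53), whereas Insig2 had 16.5 and 19.4 FPKM (-0.47). The ratio of Insig1 to Insig2 was therefore 2.53 with DEX and 1.24 with PBS, but 1.11 in the second PDGFRα+ DEX library.

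Uptake and storage genes were also within 2-fold. Besides Lrp1 (-0.65) and Npc2 (-0.52), the lysosomal exporter Npc1 differed by -0.20, the sterol carrier Stard4 by -0.02, and Soat1, which esterifies cholesterol for storage, by 0.16. Soat1 had 44.0 FPKM with DEX and 33.0 FPKM with PBS.

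Efflux genes were on the lower side. Abca1, the pump that loads cholesterol onto apolipoprotein A-I (ENSMUSG00000015243, chr4:53030787-53159895), stood at 18.8 FPKM with DEX and 63.5 FPKM with PBS, a difference of -1.94. Abcg1, which exports to HDL (ENSMUSG00000024030, chr17:31057675-31117988), stood at 2.55 FPKM with DEX and 5.17 FPKM with PBS, a difference of -1.04, and was the lowest of the 31 members in level with DEX. Nr1h2, the liver X receptor beta, had 26.6 FPKM with DEX and 32.7 FPKM with PBS (-0.53).

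In the authors' deposited table, 5 members had a q-value under 0.05 and were higher with DEX, against 9.37% of the genes listed. They were Hsd17b7 (q = 0.00102), Fdps (q = 0.0078), Tm7sf2 (q = 0.0186), Msmo1 (q = 0.0414) and Sc5d (q = 0.049). Abca1 was lower at q = 0.0382 in the authors' deposited table, against 5.63% of genes. These q-values rest on 1 library per group.

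**Figure D3:**
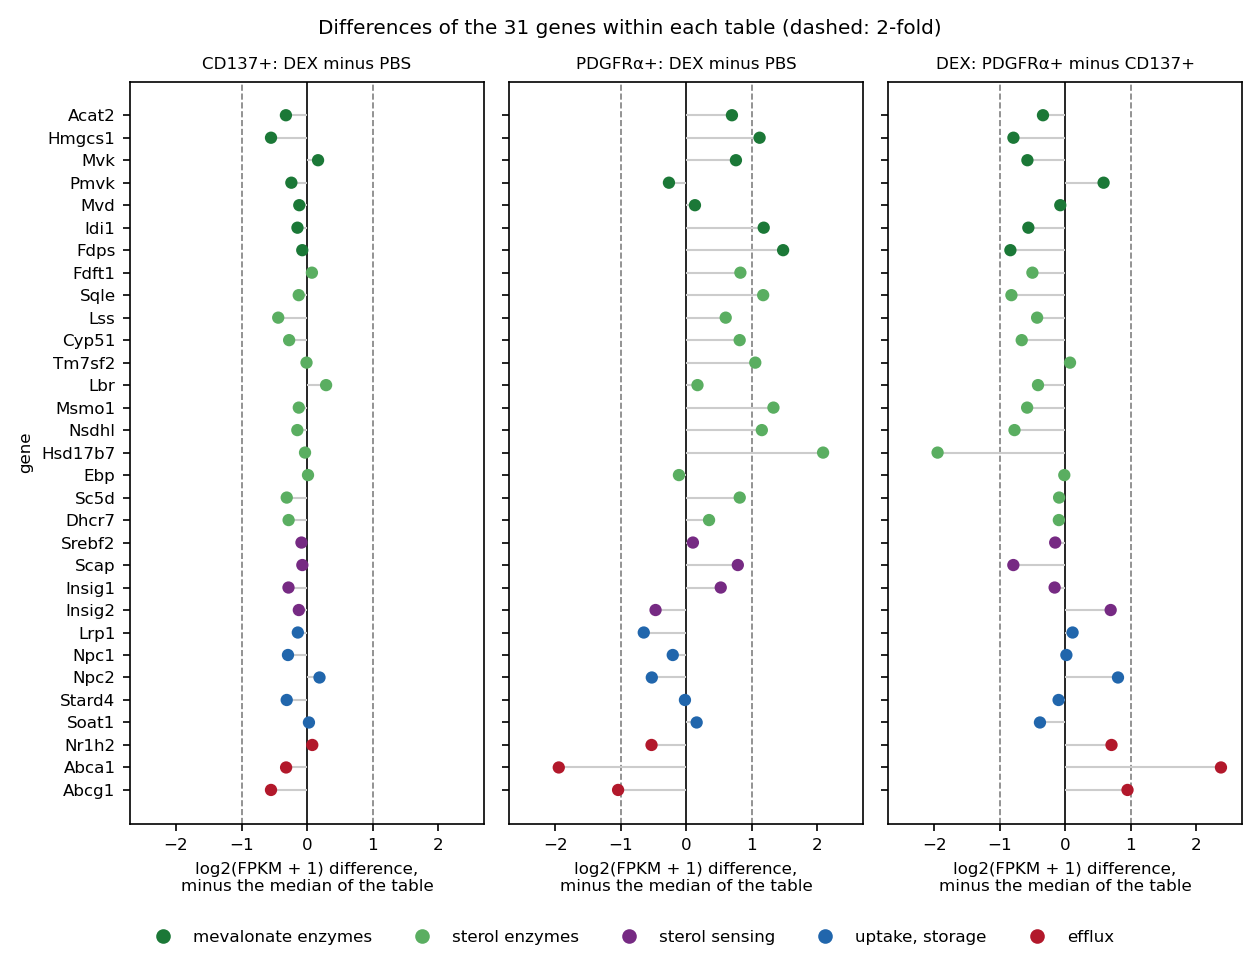
Difference of each of the 31 genes (rows, dots coloured by role) in log2(FPKM + 1), less the median of the table, for PDGFRα+ and CD137+ cells with DEX over PBS and for PDGFRα+ over CD137+ cells with DEX; dashed lines mark 2-fold. Enzymes lie mostly right of 0 in the PDGFRα+ table (17 of 19) and Abca1 far to the left, while none of the 31 passes 2-fold in the CD137+ table.

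The second PDGFRα+ DEX library, set against the same PBS library after both were brought to a median difference of 0, had no member past 2-fold in either direction, against 0.0562% of 12456 genes higher and 0.112% lower. Member differences ran between -0.42 (Abcg1) and 0.44 (Msmo1), with a median of 0.06. Hsd17b7 stood at 4.74 FPKM in the second PDGFRα+ DEX library against 3.90 FPKM in PBS, and Abca1 at 54.8 against 63.5 FPKM. The 2 libraries labelled PDGFRα+ DEX also differed from each other. Between the first and the second, 4 members were past 2-fold higher (Hsd17b7 1.89, Fdps 1.45, Hmgcs1 1.04, Nsdhl 1.04), against 8.61% of 13019 genes, and Abca1 was lower (-1.71), against 11.6%.

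Other gene groups moved with the same pair of libraries. Cell cycle genes were past 2-fold higher in the first PDGFRα+ DEX library than in PBS in 14 of 15 cases (median 1.58, summed level 419 FPKM with DEX and 118 FPKM with PBS). Adipocyte markers were lower in 10 of 11 (median -1.70, sum 220 and 1064 FPKM with DEX and PBS), with Adipoq at 1.44 and 14.7 FPKM. Progenitor markers were lower in 8 of 10 (median -2.13, sum 2443 and 11880 FPKM). Mural markers were past 2-fold higher in 3 of 8 (sum 3272 and 1299 FPKM), and mesothelial and epithelial markers higher in 4 and lower in 2 of 8 (sum 497 and 110 FPKM), with Krt8 at 205 FPKM with DEX and 18.2 FPKM with PBS. The adipocyte gene Cfd was listed at 0 in the first PDGFRα+ DEX library and at 9.61 FPKM with PBS. Endothelial and macrophage markers were low in all 6 libraries (sums of 16.3 to 34.9 and 13.5 to 35.9 FPKM), and the macrophage genes Adgre1, Itgam and Mrc1 were listed in no table. The part of cell division, differentiation state or cell mixture in the enzyme values was not tested, and in bulk RNA fewer cells of a type and less RNA per cell cannot be told apart.

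CD137+ cells showed small differences in the same genes. None of the 31 members was past 2-fold with DEX over PBS, against 0.406% of 12304 genes higher and 0.658% lower. The median was -0.13, with 7 of 31 members above 0, and values ran between -0.55 (Abcg1 and Hmgcs1) and 0.29 (Lbr). The median shift taken off this table was 0.05.

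Hmgcs1 stood at 64.1 FPKM with DEX and 91.1 FPKM with PBS in CD137+ cells, and Abcg1 at 10.1 and 14.7 FPKM. Lanosterol synthase, Lss, had 13.8 FPKM with DEX and 18.4 FPKM with PBS, a difference of -0.44. The enzymes that stood out in PDGFRα+ cells were level here: Hsd17b7 had 17.4 and 17.1 FPKM with DEX and PBS, Fdps 65.9 and 67.0 FPKM, Idi1 36.3 and 38.8 FPKM, Sqle 33.1 and 35.0 FPKM, Msmo1 48.9 and 51.6 FPKM, Nsdhl 27.1 and 29.1 FPKM, and Tm7sf2 9.44 and 9.14 FPKM. Abca1 stood at 52.5 FPKM with DEX and 63.5 FPKM with PBS, a difference of -0.32. The ratio of Insig1 to Insig2 was 4.01 with DEX and 4.47 with PBS, and 2.05 in the second CD137+ DEX library.

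No member was past a q-value of 0.05 in the authors' deposited table of CD137+ cells, in which 1.8% of genes were listed as higher and 1.91% as lower at that level. These q-values too rest on 1 library per group. In the same libraries the median was 0.58 over 15 cell cycle genes and -0.60 over 12 adipocyte markers, and 0 genes of either list were past 2-fold. Even so, 15 of 15 cell cycle genes lay above 0 and 11 of 12 adipocyte markers below 0. Their part in the member values was not tested.

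Against the same PBS library, the second CD137+ DEX library had 1 member past 2-fold higher and 5 lower, where 4.76% and 7.28% of 12427 genes were. Soat1 was the higher one (1.01), with 44.9 FPKM in the second CD137+ DEX library and 19.8 FPKM in PBS. Abcg1 (-2.61), Abca1 (-2.50), Dhcr7 (-1.26), Insig1 (-1.15) and Pmvk (-1.13) were lower. Abca1 stood there at 11.5 FPKM and Abcg1 at 1.82 FPKM, the lowest levels of both genes in the 6 libraries. Against the first CD137+ DEX library the same 2 genes were past 2-fold lower (Abca1 -2.20, Abcg1 -2.07), where 6.17% of 12362 genes were, and no member was higher, against 3.17%. Over the 19 enzymes the median difference from PBS was -0.55, with 14 below 0. Cyp51 stood at 46.7 FPKM in the second CD137+ DEX library and 75.8 FPKM in PBS (-0.82), and Hsd17b7 at 24.7 and 17.1 FPKM (0.37).

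Marker lists differed widely in the same pair. Adipocyte markers were past 2-fold lower in the second CD137+ DEX library than in PBS in 11 of 11 cases (median -4.51, sum 349 and 3564 FPKM) and progenitor markers in 7 of 9 (2953 and 8627 FPKM). Cell cycle genes were past 2-fold higher in 13 of 15 cases (median 1.32, sum 564 and 184 FPKM), mural markers in 4 of 7 (1032 and 273 FPKM) and mesothelial markers in 4 of 4 (35.2 and 10.8 FPKM). Their part in the member values was not tested.

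**Figure D4:**
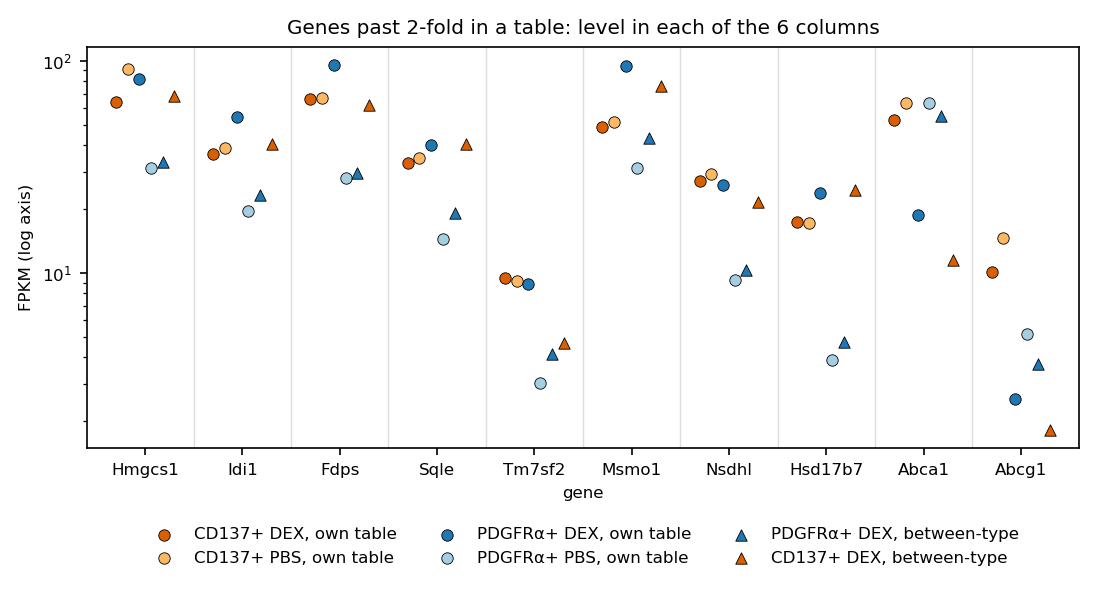
FPKM, on a log axis, of the members past 2-fold in any table, with 1 point per library and 6 libraries per gene. For the enzymes the 2 lowest points are PDGFRα+ PBS and the second PDGFRα+ DEX library, and for Abca1 the 2 lowest are the first PDGFRα+ DEX and the second CD137+ DEX library (18.8 and 11.5 FPKM).

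Between cell types, the deposited comparison sets the second PDGFRα+ DEX library over the second CD137+ DEX library. Abca1 was the 1 member past 2-fold higher in PDGFRα+ cells, against 12.6% of 12912 genes, and Hsd17b7 the 1 past 2-fold lower, against 7.31%. Abca1 stood at 54.8 FPKM in PDGFRα+ and 11.5 FPKM in CD137+ cells, a difference of 2.38, and Hsd17b7 at 4.74 and 24.7 FPKM, a difference of -1.95. The table's shift of -0.22 was taken off, and the members had a median of -0.16 against 0.02 over all genes.

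With Hsd17b7, 17 of 19 enzymes lay below 0. Fdps stood at 29.4 FPKM in PDGFRα+ and 62.0 FPKM in CD137+ cells (-0.84), Sqle at 19.2 and 40.4 FPKM (-0.82), Hmgcs1 at 33.5 and 68.2 FPKM (-0.79) and Nsdhl at 10.4 and 21.5 FPKM (-0.77). Scap, at 9.90 and 20.9 FPKM, lay with them (-0.79). Pmvk (0.59) and Tm7sf2 (0.07) were the enzymes above 0. On the higher side were Abcg1 (3.70 FPKM in PDGFRα+ and 1.82 FPKM in CD137+ cells, 0.95), Npc2 (0.81), Nr1h2 (0.71) and Insig2 (0.70). The authors' deposited table gave q-values of 0.00529 for Abca1 and 0.00274 for Hsd17b7 and none under 0.05 for the other members, where 6.72% of genes were listed as higher and 6.51% as lower at that level.

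Cell cycle genes were past 2-fold lower in PDGFRα+ cells in 15 of 15 cases there (116 FPKM summed in PDGFRα+ and 564 FPKM in CD137+ cells), and adipocyte markers higher in 8 of 11 (1149 and 349 FPKM). Their part in the member values was not tested. The first DEX libraries, which stand in different tables, reversed the leading genes: Abca1 had 18.8 FPKM in PDGFRα+ and 52.5 FPKM in CD137+ cells (-1.51), and Hsd17b7 23.7 and 17.4 FPKM (0.35). With those libraries Abcg1 (-1.72) and Abca1 were past 2-fold lower, against 7.41% of 12503 genes, and no member was higher, against 6.66%.

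With PBS, PDGFRα+ cells had lower enzyme levels than CD137+ cells, though the columns come from different tables and were brought to a median difference of 0. Of the 31 members 11 were past 2-fold lower, against 5.39% of 12481 genes, and none higher, against 8.48%. The 11 were 9 enzymes, Insig1 and Abcg1. Hsd17b7 stood at 3.90 FPKM in PDGFRα+ PBS and 17.1 FPKM in CD137+ PBS (-1.75), Cyp51 at 22.3 and 75.8 FPKM (-1.58), and Dhcr7, a late reductase of the pathway, at 5.10 and 18.96 FPKM (-1.57). Nsdhl (-1.42), Hmgcs1 (-1.38), Tm7sf2 (-1.20), Acat2 (-1.09), Sqle (-1.09) and Fdps (-1.08) followed.

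Insig1 stood at 24.1 FPKM in PDGFRα+ PBS and 72.8 FPKM in CD137+ PBS (-1.42), against Insig2 at 19.4 and 16.3 FPKM (0.38). Soat1 was on the other side, at 33.0 FPKM in PDGFRα+ PBS and 19.8 FPKM in CD137+ PBS (0.84). Abcg1 had 5.17 and 14.7 FPKM (-1.21) while Abca1 had 63.5 FPKM in both (0.14), so the ratio of Abca1 to Abcg1 was 12.3 in PDGFRα+ PBS and 4.33 in CD137+ PBS. Adipocyte markers were past 2-fold lower in PDGFRα+ PBS in 11 of 11 cases (1064 and 3564 FPKM), and their part in these differences was not tested. The PBS libraries also serve in the DEX comparisons above, so the values are not independent of those.

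Genes of the same pathway outside the set were described in the same way. Past 2-fold in the PDGFRα+ table were 9.38% of all genes on the higher side and 11.7% on the lower. The shares were 0.406% and 0.658% in the CD137+ table, and 12.6% and 7.31% in the between-type table. The PDGFRα+ differences hold for the first DEX library. With the second over the same PBS library, 0 genes of these outside lists were past 2-fold, against 0.0562% of all genes higher and 0.112% lower. Of 7 other synthesis genes 2 were past 2-fold higher and 1 lower in the PDGFRα+ table (median 0.34, with 5 above 0). The lower one was Acss2, which makes acetyl-CoA from acetate, at 4.51 FPKM with DEX and 13.5 FPKM with PBS (-1.64). In CD137+ cells Acss2 stood at 27.3 FPKM with DEX and 34.8 FPKM with PBS (-0.39).

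The branch that leads from farnesyl pyrophosphate to prenyl groups, dolichol and ubiquinone had medians near 0. None of its 11 genes was past 2-fold in the PDGFRα+ table (median -0.09) or the CD137+ table (median -0.02). Pdss1, of ubiquinone side chain synthesis, came close in the PDGFRα+ table, at 4.25 FPKM with DEX and 1.28 FPKM with PBS (0.96). In the between-type table Pdss1 was past 2-fold lower in PDGFRα+ cells, at 1.17 FPKM against 5.37 FPKM in CD137+ cells (-1.34).

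Lipoprotein receptors outside the set went different ways in the PDGFRα+ table. Of 21 measured uptake and transport genes 1 was past 2-fold higher and 5 lower (median -0.36). Lrp8, a receptor for apolipoprotein E and reelin, stood at 5.79 FPKM with DEX and 1.07 FPKM with PBS (1.47). Vldlr, which takes up triglyceride-rich particles, stood at 14.9 and 63.5 FPKM (-2.26). Gramd1b, which moves cholesterol out of the plasma membrane, stood at 8.85 and 30.96 FPKM (-1.94). In the second PDGFRα+ DEX library Vldlr and Gramd1b stood at 60.6 and 29.4 FPKM. The apolipoprotein gene Apoe had the widest difference of the 21, with 70.1 FPKM with DEX and 633 FPKM with PBS (-3.40). Apoe stood at 799 FPKM in the second PDGFRα+ and 18.4 FPKM in the second CD137+ DEX library (5.58), and at 674 and 728 FPKM in CD137+ DEX and PBS (-0.16).

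The liver X receptor alpha gene, Nr1h3, was the 1 of 12 other sensing genes past 2-fold in the PDGFRα+ table, at 1.64 FPKM with DEX and 5.60 FPKM with PBS (-1.57). In the second PDGFRα+ DEX library Nr1h3 had 5.76 FPKM. Srebf1 encodes the SREBP form that mainly drives fatty acid synthesis. It had 24.7 and 25.4 FPKM with DEX and PBS in the PDGFRα+ table (-0.28), and 78.4 and 115 FPKM in CD137+ cells (-0.60). Of 10 fatty acid synthesis genes 1 was past 2-fold higher and 2 lower in the PDGFRα+ table (median -0.04), and 1, Fasn, lower in the CD137+ table (median -0.41). The enzymes of cholesterol synthesis and those of fatty acid synthesis thus had medians of 0.82 and -0.04 in the same libraries.

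Oxysterol enzymes were lower in 3 of 5 cases in the PDGFRα+ table (median -1.49). Cyp27a1, the sterol 27-hydroxylase, stood at 1.55 FPKM with DEX and 7.21 FPKM with PBS (-1.93), Cyp7b1 at 11.4 and 30.5 FPKM (-1.58) and Cyp46a1 at 0.455 and 2.46 FPKM (-1.49). With the second PDGFRα+ DEX library over the same PBS library 0 of 5 were past 2-fold (median -0.12), and Cyp27a1 stood there at 8.28 FPKM. In CD137+ cells Ch25h, the cholesterol 25-hydroxylase, was past 2-fold higher, at 15.8 FPKM with DEX and 3.94 FPKM with PBS (1.72), and the other 3 measured were within 2-fold.

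**Figure D5:**
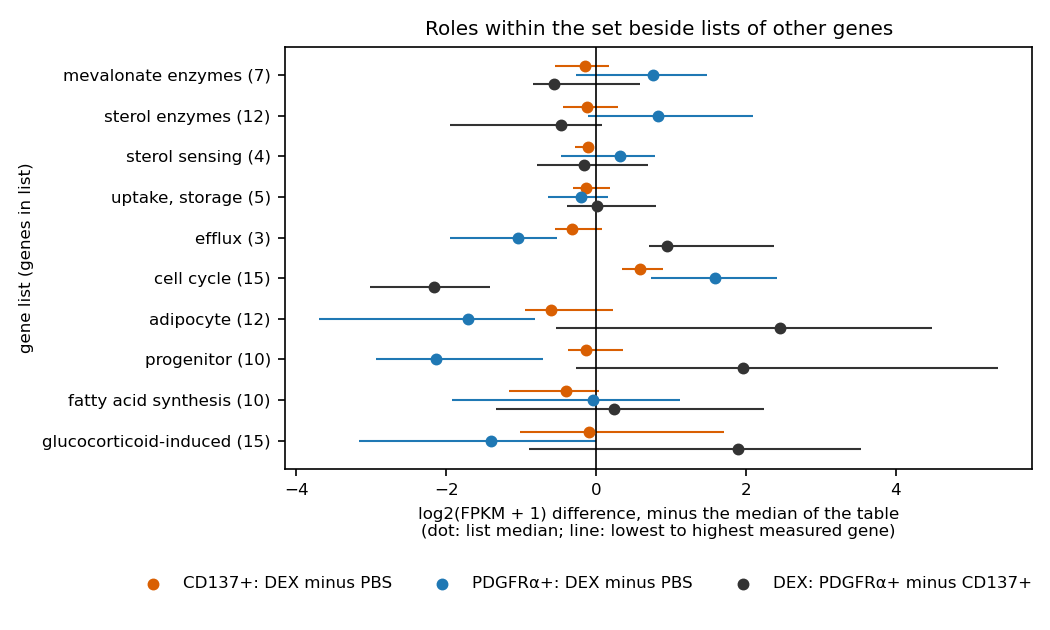
Median difference (dot) and range (line) of each gene list in log2(FPKM + 1), less the median of the table, for the 3 deposited comparisons. Lists of isoprenoid, oxysterol and other pathway genes are not drawn. In the PDGFRα+ table the enzyme lists lie above 0 (medians 0.76 and 0.82) and the efflux list below 0 (-1.04). Of the lists drawn, the cell cycle list is highest there (1.58) and the progenitor list lowest (-2.13).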

How the data were processed

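RNA libraries of 4 mouse samples were prepared with a TruSeq kit (Illumina), per the labels' protocols. The submitters' processing notes name Cufflinks, Cuffdiff and mm10 and give no versions, and an aligner or annotation is not given in the sources used here. Per the file headers, the authors deposited FPKM values in 3 tables, together with a log2 ratio, a p-value and a q-value for each gene. Ratios recomputed from FPKM lay within 3.92e-05 of the deposited log2 ratio. Genes with a column at 0 (55 in the CD137+, 195 in the PDGFRα+ and 194 in the between-type table) had a placeholder there. No gene is listed whose higher value is under 0.386 FPKM. All 6 columns were mapped to samples, and 0 were left over. Whole reads could not be recovered from low values, so depth and counting error are unknown.

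A library's FPKM values drop where a few genes take much of its total, and the 10 highest genes took 8.94% to 14.1%. Differences in log2(FPKM + 1) were therefore centred on their median among genes reaching 1 FPKM in each of the 2 columns. The pseudocount understates differences of low genes. Columns of separate tables were set side by side only after the same step. With 1 sample per group no test was made. The members, lists and settings were chosen with earlier results of these data known. Members past 2-fold in a table, the 3 highest, paralog pairs and up to 3 genes per other list with the largest differences were given with values, some genes of those lists are not reported here, and Lrp8 and Krt8 were named after their values were seen. Pseudocounts of 0.1 and 5 FPKM, other minimums, folds of 1.5 and 4, no centring, upper quartile scaling, the authors' log2 ratio and exchanged DEX columns were tried. Loci come from the GENCODE annotation of GRCm38 and promoters from RefSeq, and near copies were sought with blastn 2.17.0 at 95% identity over 500 bases. The calculations were tested on simulated data. Software was Python 3.11.15 with pandas 2.3.3, numpy 2.4.6, matplotlib 3.10.9 and scipy 1.17.1.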

Additional observations from a re-analysis of the deposited data

Results flagged for a closer look

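For 8 enzymes the first PDGFRα+ DEX library was past 2-fold higher than PBS, while the centred difference of the CD137+ pair was below 0. By centring, 6169 of 12304 genes lay below 0 in the CD137+ table, as did 24 of the 31 members. The share of all genes that met both conditions was not computed, so the 8 cannot be set against genes at large. None of the 8 was past 2-fold with the second PDGFRα+ DEX library, which carries the number of the PBS library. The gap between the 2 differences, PDGFRα+ minus CD137+, was 2.12 for Hsd17b7 (2.09 and -0.03), 1.67 for Hmgcs1 (1.12 and -0.55), 1.55 for Fdps (1.48 and -0.07), 1.46 for Msmo1 (1.33 and -0.13) and 1.33 for Idi1 (1.18 and -0.15). It was 1.30 for Sqle (1.18 and -0.13), 1.30 for Nsdhl (1.16 and -0.15) and 1.06 for Tm7sf2 (1.06 and -0.01). The CD137+ differences of Hsd17b7, Fdps and Tm7sf2 lay within 0.10 of 0, and without centring those of Hsd17b7 and Tm7sf2 were above 0 (0.02 and 0.04). With 1 library per group the difference between the cell types was not tested.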

How the results depend on the processing

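No paired analysis was possible because each group holds 1 sample. For the same reason no replicate could be left out. Exchanging the DEX column for the other one of the same label removed all 10 calls in PDGFRα+ cells, and the cause was not tested. It gave 1 member higher and 5 lower in CD137+ cells, 0 higher and 0 lower in PDGFRα+ cells, and 0 higher and 2 lower between cell types, where Hsd17b7 turned to 0.35 and Abca1 to -1.51. In PDGFRα+ cells 6 members were higher and 1 lower with a pseudocount of 5 FPKM, without Tm7sf2 (0.63), Nsdhl (0.96) and Abcg1, and 7 were higher and 1 lower with a minimum of 10 FPKM, without Tm7sf2 and Abcg1. Without centring 13 were higher and 1 lower, by construction, since the median of all genes lay at 0.24. At 1.5-fold 15 were higher, and Lrp1 joined Abca1 and Abcg1 on the lower side. At 4-fold 1 was higher and 0 lower. Between cell types 2 members were higher with a pseudocount of 0.1 FPKM and 2 with the authors' log2 ratio, 6 were higher and 7 lower at 1.5-fold, 0 were lower at 4-fold, and 5 were lower without centring. Shares of all genes at the other pseudocounts, minimums, folds and scalings were not computed. The counts at those settings therefore describe the members only and cannot be set against genes at large. Depth is unknown, so the counting error of low members such as Abcg1 is not known.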
